A study of Mus musculus with 10 samples.

Results

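Sulfotransferases of the cytosol are the enzymes that attach a sulfate group to hormones, bile acids, drugs and other small molecules. The 8 genes described here are Sult1a1, Sult1b1, Sult1c2, Sult1d1, Sult1e1, Sult2a8, Sult3a1 and Sult5a1. They were taken by name from a table of 19414 genes in which 18 genes of this family were listed. They were chosen by their names after the difference in mRNA level between the diets had been seen for every gene, so the members' diet differences are given as a description without p-values.

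Liver mRNA was measured by bulk RNA sequencing of poly-A RNA in 10 female HET3 mice, a genetically heterogeneous stock, 1 library per mouse. For 5 months, 5 mice had eaten a standard diet (SD) and 5 the Longevity diet (LD), which the title of the series describes as supplemented with methionine. The mice are labelled as 25 months old, which may refer to the beginning or the close of the feeding period. All 10 mice share the stock, sex and tissue, and each is named by diet and number (LD_405). The p-values judge a difference between the diets against the spread between mice. No cage or sequencing batch is named.

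A sulfotransferase takes the sulfate group from the activated donor PAPS (3′-phosphoadenosine 5′-phosphosulfate) and moves it to a hydroxyl or amino group of its substrate, which makes the product more soluble in water and, for many hormones, inactive. PAPS is made from inorganic sulfate, much of which comes from the oxidation of cysteine, and cysteine can be made from methionine. The liver is a main site of sulfation. In mice several members of the family differ between the sexes, and nuclear receptors for steroids, bile acids and foreign compounds are known to regulate some of them.

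All members share a loop that holds the phosphosulfate end of PAPS. The 30 coding bases around that loop are shown so that the members can be compared at a stretch they share. They come from the GENCODE M21 gene models, are written 5′ to 3′ in the sense of the mRNA, and have in capitals each base that differs from the most common base among the 8 members. Where bases were equally common, the one found first in the order below was taken as most common.
Sult1a1: acGtaCccaaaGtctggtacTacctggatg
Sult1b1: acTtaCccTaaatcAggtacTacTtggCtT
Sult1c2: acTtaCccTaaatcAggGacAacAtggatT
Sult1d1: acatatccCaaatctggAacAacTtggGtC
Sult1e1: acatatccTaaatctggtaccacctggatT
Sult2a8: acTtatccaaaatcAggAaccCActggTtg
Sult3a1: acatatccaaaGtctggtaccaTctggaCC
Sult5a1: acatTtccCaaGtcAggtaccacctggatg
Sult3a2: acataCccaaaGtctggtaccacctggaCT
Sult2a1: acTtaCccCaaGtcAggAacGaActggCtg
Sult1e1 carried 2 capitals in this stretch, and Sult1b1 and Sult1c2 carried 8 each. Sult3a2 and Sult2a1, shown for comparison, carried 4 and 9. Over the aligned bases of the whole coding sequence, with gaps left out, identity between the members ran from 49.4% to 63.2% over 28 pairs. The lowest was between Sult1d1 and Sult5a1, and the highest between Sult1d1 and either Sult1a1 or Sult1b1. Sult1e1 and Sult5a1, the members with the largest differences between the diets, shared 52.1% of their aligned coding bases. Outside the members, Sult3a1 had a close copy in Sult3a2, with 90.9% identity. Sult2a8 was 73.2% identical to Sult2a2 over 578 aligned bases, since the Sult2a2 model holds only 582 coding bases. With Sult2a5 it shared 71.5% of 835 aligned bases. Reads from Sult3a1 and Sult3a2 may therefore have been divided between both genes, in a way the sources used here do not describe.

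The promoters of 4 members are shown because these genes stood furthest apart between the diets (Sult1e1, Sult5a1 and Sult3a1) or lay next to such a gene (Sult1d1). Each run holds 250 bases before and 50 after the annotated start, from RefSeq on build GRCm38.p6, in the direction of transcription. The regions are chr5:87591562-87591861 on the minus strand for Sult1e1, chr5:87568957-87569256 on the minus strand for Sult1d1, chr8:123158231-123158530 on the minus strand for Sult5a1 and chr10:33857472-33857771 on the plus strand for Sult3a1. Capitals mark matches to AGGTCA (the repeat unit of many nuclear receptor sites), TTCNNNGAA (the STAT5 site), GTTAAT (part of an HNF1 site) or TATAAA (the TATA box), each searched on both strands.
Sult1e1 promoter: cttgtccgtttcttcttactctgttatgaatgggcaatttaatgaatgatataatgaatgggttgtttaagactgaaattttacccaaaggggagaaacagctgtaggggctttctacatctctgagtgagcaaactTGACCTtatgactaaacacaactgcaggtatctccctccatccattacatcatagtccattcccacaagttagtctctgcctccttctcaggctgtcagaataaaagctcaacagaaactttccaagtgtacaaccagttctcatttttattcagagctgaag
Sult1d1 promoter: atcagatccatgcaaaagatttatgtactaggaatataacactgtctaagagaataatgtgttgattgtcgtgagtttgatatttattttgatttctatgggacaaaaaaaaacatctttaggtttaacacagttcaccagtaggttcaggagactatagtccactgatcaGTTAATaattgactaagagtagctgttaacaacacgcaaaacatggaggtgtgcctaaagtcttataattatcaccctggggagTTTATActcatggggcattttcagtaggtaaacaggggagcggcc
Sult5a1 promoter: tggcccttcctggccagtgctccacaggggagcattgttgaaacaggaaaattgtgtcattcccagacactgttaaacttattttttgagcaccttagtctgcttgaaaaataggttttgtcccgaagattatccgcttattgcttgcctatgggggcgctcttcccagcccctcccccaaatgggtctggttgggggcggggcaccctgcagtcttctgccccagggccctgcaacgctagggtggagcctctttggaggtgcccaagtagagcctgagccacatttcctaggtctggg
Sult3a1 promoter: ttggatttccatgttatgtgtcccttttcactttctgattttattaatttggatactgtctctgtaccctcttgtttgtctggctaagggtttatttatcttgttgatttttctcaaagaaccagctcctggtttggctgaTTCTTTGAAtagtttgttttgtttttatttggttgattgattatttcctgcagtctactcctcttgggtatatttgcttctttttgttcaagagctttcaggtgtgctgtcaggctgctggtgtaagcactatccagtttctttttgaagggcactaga
The Sult1e1 window held 1 AGGTCA unit, read as TGACCT on the printed strand and beginning 113 bases before the start. The Sult1d1 window held GTTAAT beginning 79 bases before the start, and the reverse of the TATA letters. Sult3a1 held 1 STAT5 match, TTCTTTGAA, beginning 109 bases before the start. None of these 4 sets of letters was found in the Sult5a1 window. Among 32851 promoters of the same length, 16.3% held AGGTCA, 8.30% TTCNNNGAA, 7.10% GTTAAT and 13.6% TATAAA, so each match is a common one. RefSeq promoters were found for 8 of 8 members and for 14 of the 18 family genes in the table.

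Levels are given as CPM, reads on a gene per 1000000 reads on all listed genes, and positions are on mm39 unless another build is named. Between the diets, 2 of the 8 members passed the threshold of the fit over all genes (limma, Benjamini-Hochberg adjusted p under 0.05), both lower on the Longevity diet. For comparison, 1.23% of the 13157 genes tested passed it as lower and 1.89% in either direction. The 5 values of each diet did not overlap for 3 members, all lower on the Longevity diet, against 3.49% of all genes tested that were lower without overlap, 2.01% that were higher and 5.5% in either direction. Since the members were chosen with this contrast known, nothing is read from these shares. For the same reason the intervals and threshold results of single members below, also with mice left out, are a description and not a test. The members passed the minimum of a mean of 1 CPM in 8 of 8 cases, but Sult1e1 and Sult5a1 passed it only through the mice on the standard diet. A log2 difference is taken on log2(CPM + 0.1), Longevity diet minus standard diet, and understates differences of low genes.

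Sult1e1 is the estrogen sulfotransferase, which inactivates estradiol and estrone by sulfation. It lies at chr5:87723828-87739453 on the minus strand. On the standard diet it measured 11.3 CPM in SD_403, 95.9 in SD_501, 7.21 in SD_502, 28.1 in SD_646 and 8.28 in SD_500. On the Longevity diet it measured 0.307 CPM in LD_405, 0.376 in LD_513, 0 in LD_406, 0.693 in LD_515 and 0.196 in LD_442. Every mouse on the Longevity diet was below 1 CPM and every mouse on the standard diet above 7 CPM, and SD_501 stood above the other 4. The mean was 30.2 ± 37.7 CPM on the standard diet and 0.314 ± 0.255 CPM on the Longevity diet (SD, n = 5 each). The log2 difference was -5.73 (SE 0.70, 95% interval -7.24 to -4.21), and the gene passed the threshold. Without SD_501 it was -5.12 and the gene passed. At the estimated depths, the Longevity diet libraries held 0 to 18.0 reads of the gene and the standard diet libraries 288 to 3454. In the shallowest library, LD_406, a count of 0 allows up to 0.121 CPM, the level of 3 reads. Such limits cover counting error only.

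Sult5a1, a member whose substrates are little known, lies at chr8:123866931-123885054 on the minus strand. It measured 48.5 CPM in SD_403, 10.2 in SD_501, 7.43 in SD_502, 11.2 in SD_646 and 5.08 in SD_500. The Longevity diet mice had 0.589 CPM in LD_405, 0.868 in LD_513, 0 in LD_406, 0.308 in LD_515 and 0.196 in LD_442. As with Sult1e1, the diets did not overlap and LD_406 was at 0, but the highest mouse on the standard diet was SD_403 and not SD_501. The mean was 16.5 ± 18.1 CPM against 0.392 ± 0.341 CPM (SD, n = 5 each). The log2 difference was -4.94 (SE 0.66, 95% interval -6.37 to -3.51), past the threshold. With weights per value from estimated reads, an alternative added after seeing the data, neither Sult1e1 nor Sult5a1 passed the threshold, although their log2 differences were -6.32 and -5.45.

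**Figure D1:**
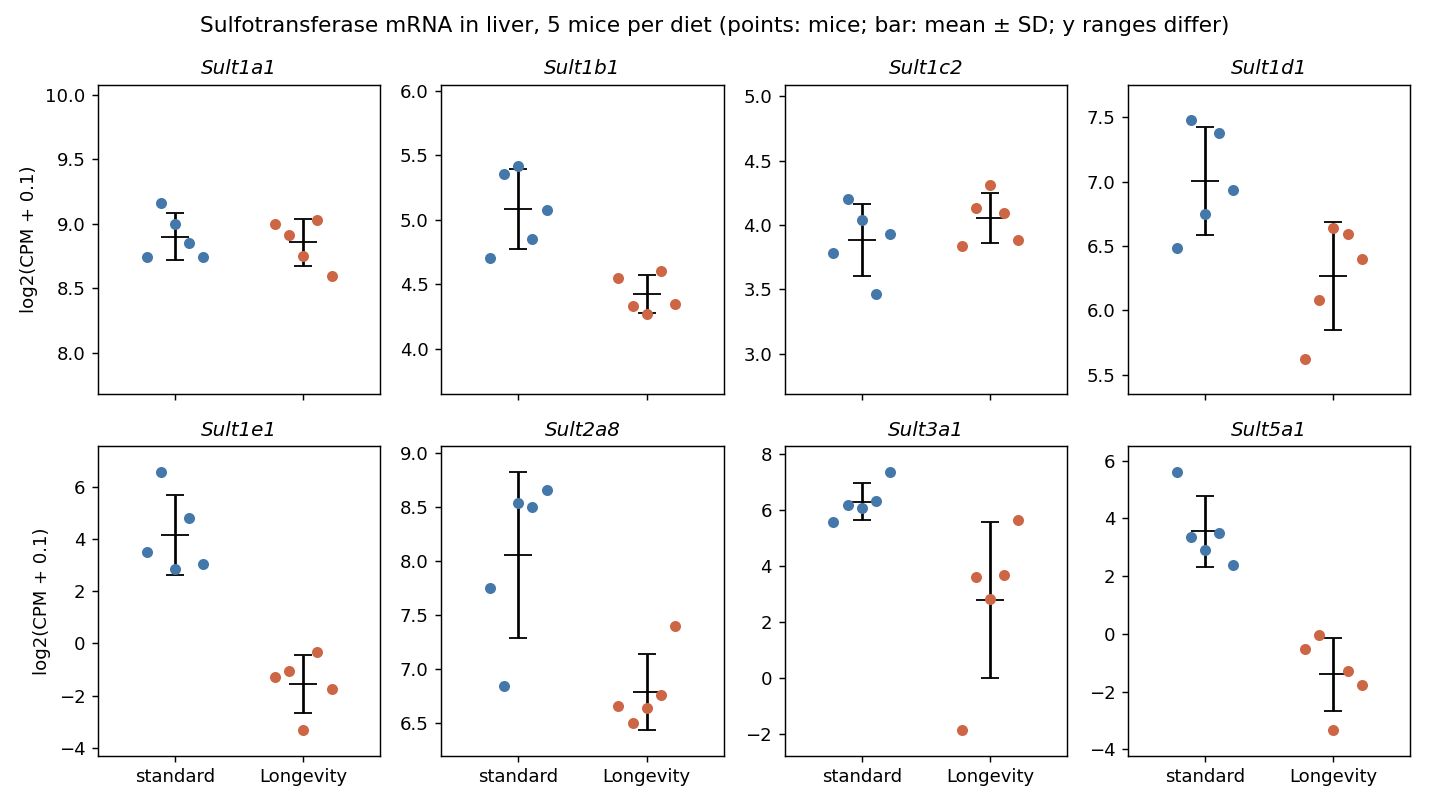
Level of each of the 8 sulfotransferase genes in each mouse, as log2(CPM + 0.1) on the vertical axis, with the diets side by side; points are mice and bars are the mean ± SD of 5 mice, and each panel has its own range. Sult1e1 and Sult5a1 are separated by diet, Sult3a1 and Sult2a8 overlap in 1 mouse per diet, and Sult1a1 and Sult1c2 overlap throughout.

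Sult3a1 conjugates aromatic amines and is known as a female-predominant liver transcript. It lies at chr10:33733717-33755528 on the plus strand. Its levels were 48.3 CPM in SD_403, 72.8 in SD_501, 67.9 in SD_502, 79.8 in SD_646 and 164 in SD_500. On the Longevity diet they were 0.179 CPM in LD_405, 12.3 in LD_513, 6.96 in LD_406, 12.9 in LD_515 and 49.7 in LD_442. Of the mice on the Longevity diet, 4 of 5 lay below the lowest on the standard diet, and LD_442 lay just above it. The highest of the Longevity diet mice was 277-fold above the lowest. The mean was 86.6 ± 44.9 CPM against 16.4 ± 19.3 CPM (SD, n = 5 each), with a log2 difference of -3.52 (SE 1.15, 95% interval -6.10 to -0.94), not past the threshold. Without LD_405, the lowest mouse, the log2 difference was -2.36 and the gene passed. That was the only 1 of 22 alternatives in which Sult3a1 passed.

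Sult2a8 belongs to the subfamily that acts on bile acids and hydroxysteroids, and is known for sulfating bile acids in mouse liver. It lies at chr7:14144611-14180694 on the minus strand. It measured 214 CPM in SD_403, 115 in SD_501, 370 in SD_502, 363 in SD_646 and 402 in SD_500. The Longevity diet mice had 100.4 CPM in LD_405, 90.0 in LD_513, 99.3 in LD_406, 108 in LD_515 and 168 in LD_442. SD_501 was the lowest on its diet and LD_442 the highest on its own, and the diets overlapped through these mice. The mean was 293 ± 123 CPM against 113 ± 31.4 CPM (SD, n = 5 each). The log2 difference was -1.27 (SE 0.32, 95% interval -1.96 to -0.58), not past the threshold. It was -1.57 without SD_501 and -1.42 without LD_442, and the gene passed in both cases. In all, Sult2a8 passed in 4 of 22 alternatives.

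Sult1b1 and Sult1d1 are neighbours of Sult1e1 on chromosome 5 and act on thyroid hormones, phenols and catecholamines. Sult1b1, at chr5:87661198-87686054 on the minus strand, measured 25.9 CPM in SD_403, 40.9 in SD_501, 42.7 in SD_502, 28.7 in SD_646 and 33.7 in SD_500. It measured 23.3 CPM in LD_405, 20.0 in LD_513, 19.2 in LD_406, 24.2 in LD_515 and 20.2 in LD_442. The diets did not overlap, though the lowest mouse on the standard diet and the highest on the Longevity diet were close. The mean was 34.4 ± 7.34 CPM against 21.4 ± 2.24 CPM (SD, n = 5 each), a log2 difference of -0.66 (SE 0.19, 95% interval -1.06 to -0.26), not past the threshold.

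Sult1d1 lies at chr5:87702504-87716886 on the minus strand. It measured 89.5 CPM in SD_403, 178 in SD_501, 107 in SD_502, 166 in SD_646 and 122 in SD_500. It measured 49.1 CPM in LD_405, 67.6 in LD_513, 99.4 in LD_406, 96.3 in LD_515 and 84.1 in LD_442. LD_406 and LD_515 lay above SD_403, and the other 3 mice on the Longevity diet lay below every mouse on the standard diet. The mean was 133 ± 38.1 CPM against 79.3 ± 20.99 CPM (SD, n = 5 each), a log2 difference of -0.74 (SE 0.25, 95% interval -1.27 to -0.21), not past the threshold.

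Sult1a1, the main phenol sulfotransferase of liver, lies at chr7:126272037-126275604 on the minus strand. It ranged from 427 to 573 CPM on the standard diet, with a median of 461, and from 386 to 522 on the Longevity diet, with a median of 482. The mean was 480 ± 62.4 CPM against 466 ± 57.4 CPM (SD, n = 5 each), and the mice of both diets were interleaved. The log2 difference was -0.04 (SE 0.16, 95% interval -0.38 to 0.30), and its sign turned to 0.06 under median-of-ratios scaling. Sult1c2, at chr17:54136665-54153367 on the minus strand, belongs to a subfamily known for acting on phenols and N-hydroxyarylamines. It ranged from 10.9 to 18.3 CPM on the standard diet and from 14.2 to 19.8 on the Longevity diet. Its log2 difference was 0.17 (SE 0.19, 95% interval -0.25 to 0.58), the only one of the 8 above 0. Neither gene passed the threshold, and the intervals leave room for a modest difference in either direction.

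Of the 8 members, 7 had a log2 difference below 0, beside 60.4% of all genes tested, and the median over all genes was -0.11. Within a diet the members differed widely in how much mice varied. On the standard diet the coefficient of variation was 13.0% for Sult1a1, 18.7% for Sult1c2, 21.4% for Sult1b1 and 28.7% for Sult1d1. It was 42.1% for Sult2a8, 51.9% for Sult3a1, 110% for Sult5a1 and 125% for Sult1e1. The members with the largest diet differences were thus also those that varied most between mice on the standard diet.

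Levels can be compared between genes only after division by transcript length, which was done with exon lengths from GENCODE M21 to give RPKM (CPM per kilobase). On the standard diet Sult1a1 had the highest level of the members, 318 ± 41.4 RPKM, and did not overlap with the next gene. Sult2a8 followed at 89.2 ± 37.5 RPKM, Sult3a1 at 74.9 ± 38.9, Sult1d1 at 54.0 ± 15.5 and Sult1e1 at 24.3 ± 30.4 (SD, n = 5 mice each). Sult1b1 at 12.4 ± 2.64 RPKM, Sult1c2 at 8.06 ± 1.51 and Sult5a1 at 3.73 ± 4.09 had the lowest levels. From Sult2a8 downwards each gene overlapped with the next in order. On the Longevity diet Sult1a1 was again highest, at 309 ± 38.1 RPKM, and Sult2a8 was at 34.5 ± 9.57, Sult1d1 at 32.3 ± 8.54, Sult3a1 at 14.2 ± 16.7, Sult1c2 at 9.01 ± 1.22 and Sult1b1 at 7.70 ± 0.805. A gap then separated Sult1b1 from Sult1e1, at 0.253 ± 0.205 RPKM, and Sult5a1, at 0.0888 ± 0.0771. Sult1e1 and Sult1c2 exchanged places between the diets, as did Sult3a1 and Sult1d1, which overlapped on both diets. Sult1e1 and Sult1c2 overlapped on the standard diet but not on the Longevity diet. The place of Sult1e1 on the standard diet rested on SD_501: without that mouse its mean was 11.04 ± 7.83 RPKM, below Sult1b1 at 11.8 ± 2.65 RPKM (SD, n = 4 mice), a check added after seeing the data.

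Summed over the 8 members, CPM ranged from 879 to 1178 on the standard diet and from 675 to 782 on the Longevity diet. Over all 18 family genes the sums overlapped, from 1683 to 2378 CPM and from 1510 to 1938 CPM. The other 10 genes of the family gave 736 to 1200 CPM and 787 to 1263 CPM. A sum of CPM weights long and abundant transcripts most, and Sult1a1 alone supplied 480 of the mean of 1088 CPM over the members on the standard diet.

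The other family members in the table were 10 genes, 7 of which reached a mean of 1 CPM and were tested. By limma 0 of the 7 passed the threshold, 4 had an unadjusted p under 0.05, and with voom weights 1 passed, Sult3a2. Over all 13157 genes tested, 2309 had an unadjusted p under 0.05 by limma. Sult3a2, the close copy of Sult3a1, did not overlap between the diets. It measured 13.9 CPM in SD_403, 12.5 in SD_501, 18.4 in SD_502, 24.6 in SD_646 and 33.1 in SD_500, and 0.154 in LD_405, 3.30 in LD_513, 2.43 in LD_406, 3.58 in LD_515 and 10.8 in LD_442. Its log2 difference was -2.98 (SE 0.76, limma adjusted p = 0.0716). It passed in 6 of 22 alternatives, among them those without LD_405 (adjusted p = 0.0179) or without LD_442 (adjusted p = 0.0245).

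Sult2a7, the neighbour of Sult2a8, ranged from 5.98 to 116 CPM on the standard diet, with a median of 17.4, and from 0.423 to 33.9 on the Longevity diet, with a median of 1.17. Its log2 difference was -2.97 (SE 1.19, limma adjusted p = 0.233), with overlap between the diets. The hydroxysteroid sulfotransferase Sult2a1 had its higher mean on the Longevity diet. It measured 371 to 489 CPM on the standard diet, with a median of 434, and 344 to 838 on the Longevity diet, with a median of 648, and 4 of 5 mice on the Longevity diet were above the highest on the standard diet. The log2 difference of Sult2a1 was 0.54 (SE 0.23, limma adjusted p = 0.241), and without LD_442, the lowest mouse, it was 0.76 (adjusted p = 0.0480). That was the only 1 of 22 alternatives in which Sult2a1 passed.

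Sult2a6 had a log2 difference of 1.65 (limma adjusted p = 0.185), Sult2a5 of 0.54 (adjusted p = 0.413), Sult2a3 of 0.41 (adjusted p = 0.614) and Sult2a2 of -0.32 (adjusted p = 0.641). The median over the 7 genes was 0.41, with 3 below 0 and 4 above. Several Sult2a genes are near copies of each other, with 97.9% identity between Sult2a1 and Sult2a2 over 582 aligned bases, so their separate levels are uncertain. Sult2a4, the brain-type member Sult4a1 and Sult6b2 had means under 1 CPM and were not tested.

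**Figure D2:**
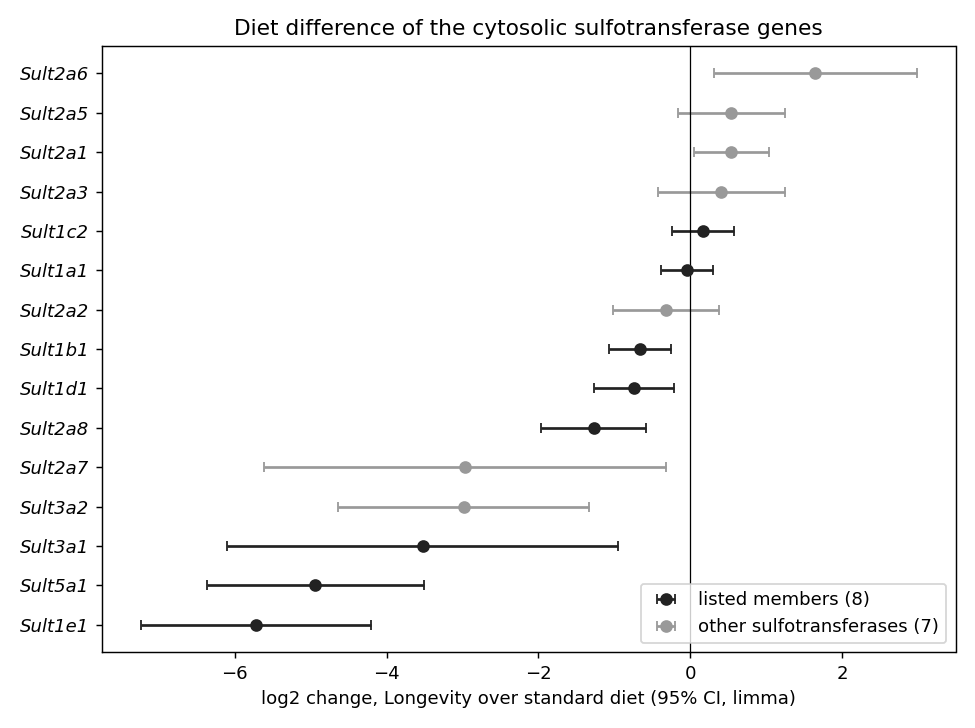
Log2 difference between the diets (Longevity minus standard, horizontal axis) with its 95% interval for the 15 sulfotransferase genes tested, fitted with limma over all genes. Intervals of Sult1e1 and Sult5a1 lie furthest below 0, those of Sult1a1, Sult1c2, Sult2a2, Sult2a3 and Sult2a5 span 0, and Sult2a6 has the highest value, 1.65.

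The mice that stood high were not the same from gene to gene. SD_501 was the highest mouse on the standard diet for Sult1a1, Sult1c2, Sult1d1 and Sult1e1, and the lowest for Sult2a8, Sult3a2 and Sult2a2. SD_500 was the highest for Sult2a8, Sult3a1, Sult3a2, Sult2a7 and Sult2a1, and SD_403 for Sult5a1. On the Longevity diet LD_442 was the highest mouse for Sult2a8, Sult3a1, Sult3a2 and Sult2a7 and the lowest for Sult1a1, Sult2a1, Sult2a3 and Sult2a6. LD_405 was the lowest for Sult3a1, Sult3a2, Sult1d1 and Sult1c2, and LD_406 for Sult1e1, Sult5a1 and Sult1b1. Leaving out both SD_501 and LD_442, chosen after seeing the data, the log2 difference was -5.07 for Sult1e1, -4.90 for Sult5a1 and -4.26 for Sult3a1, and for Sult2a8 it was -1.72, which then passed.

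**Figure D3:**
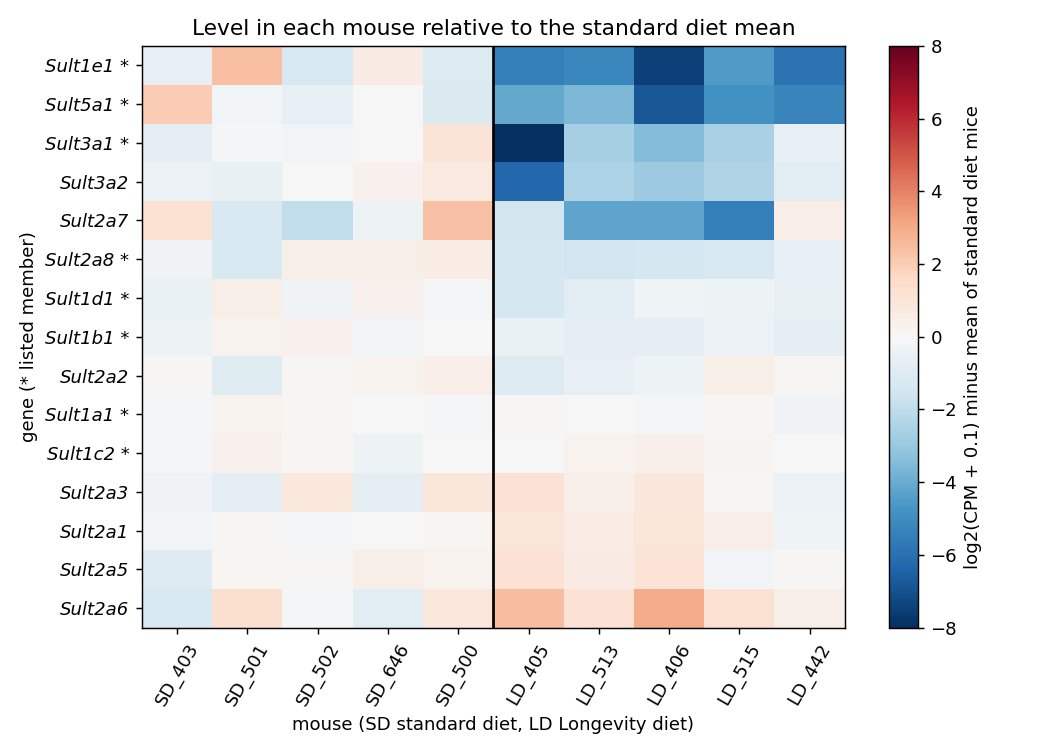
Level of each of the 15 sulfotransferase genes tested (rows, members with an asterisk) in each of the 10 mice (columns), as log2(CPM + 0.1) minus the gene's mean over the standard diet mice, from blue for lower to red for higher. LD_442 stands high among the Longevity diet mice in the rows of Sult2a8, Sult3a1, Sult3a2 and Sult2a7, and not in those of Sult1e1 and Sult5a1.

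For each member, the genes whose levels followed it most closely over the 10 mice were listed by Pearson correlation of log2(CPM + 0.1), as a description of these libraries, since the diet difference itself enters it. Sult3a1 was followed most closely by Sult3a2 (r = 0.99), then C330018D20Rik (0.98) and Daam1 (0.97). Sult1e1 was followed by the histone gene H2ac18 (r = 0.97), Id4 (0.96) and Myct1 (0.95), and Sult5a1 by the noncoding RNAs Gm20634 (0.96) and Gm40264 (0.96) and the metallothionein gene Mt1 (0.95). For Sult2a8 they were Btbd8 (0.95), C5ar2 (0.91) and Zfp157 (0.90). For Sult1d1 they were Mettl7a1, Tceanc and Gnpnat1 (0.96 each), and for Sult1b1 they included Klhl13 (0.93) and Clu (0.91). Sult1c2 had Cdt1 (0.91), Gatad1 (0.90) and Odc1 (0.90). Sult1a1, the steadiest member, had lower correlations, with Ccdc9b (0.84), Cd320 (0.82) and AI987944 (0.79).

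**Figure D4:**
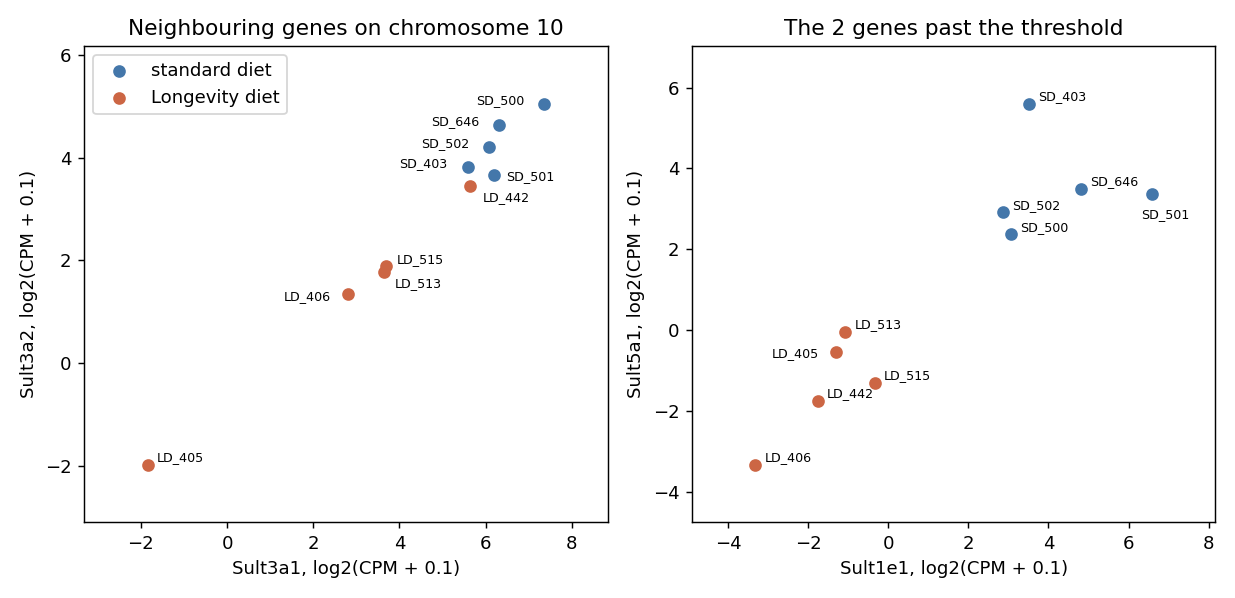
Left, Sult3a2 against Sult3a1, and right, Sult5a1 against Sult1e1, each mouse 1 labelled point on log2(CPM + 0.1) axes, coloured by diet. On the left the mice lie along 1 line with LD_442 beside the standard diet mice and LD_405 far below; on the right the diets form separate groups and LD_406, at 0 for both genes, is lowest.

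The positions of the members were compared with the genes beside them. Sult1b1, Sult1d1 and Sult1e1 lie in a row on chromosome 5, with 16.4 kb between Sult1b1 and Sult1d1 and 6.94 kb between Sult1d1 and Sult1e1. Their log2 differences of -0.66, -0.74 and -5.73 share a sign but not a size. Next to this row at 176 kb, the glucuronosyltransferase gene Ugt2a3 fell from 171 ± 32.0 to 99.2 ± 16.04 CPM (log2 difference -0.78, limma adjusted p = 0.0462, lost in 16 of 22 alternatives), and on the far side Jchain had -1.26 (adjusted p = 0.404). Sult3a2 lies 71.0 kb from Sult3a1, whose other neighbour Rsph4a had 0.41 (adjusted p = 0.738). Sult2a8 lies 18.3 kb from Sult2a7 and 156 kb from Sult2a6, genes whose log2 differences, -2.97 and 1.65, had opposite signs.

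Sult5a1 stood alone among its neighbours. The ribosomal protein gene Rpl13 on one side had a log2 difference of 0.45 (limma adjusted p = 0.324) and the noncoding RNA Gm4316 on the other -0.07 (adjusted p = 0.971). The 3′ end of Sult1a1 overlaps Sgf29, which had 0.71 (adjusted p = 0.0888), and Slx1b on its other side had 0.06 (adjusted p = 0.908). Whether reads were counted by strand is not given in the sources used here. The neighbours of Sult1c2, Kat2b and Pot1b, had -0.07 (adjusted p = 0.937) and 0.17 (adjusted p = 0.897).

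The supply of the sulfate donor was examined through lists of genes taken from textbook pathways. All gene lists used here and below were chosen with earlier results of these data known. Their counts, p-values and alternatives are therefore a description and not an independent test. Of 6 genes for PAPS synthesis, transport and removal of the spent donor, 1 fell and none rose, where 1.23% of all genes tested fell. Papss2, which makes PAPS in liver, fell from 240 ± 66.3 to 121 ± 21.2 CPM, with no overlap between the diets (log2 difference -0.96, limma adjusted p = 0.0318, lost in 8 of 22 alternatives). The other PAPS synthase, Papss1, had a log2 difference of -0.29 (adjusted p = 0.672), and the Golgi PAPS transporter Slc35b2 had 0.04 (adjusted p = 0.950). Of 4 sulfate transporter genes, 0 passed the threshold, 0 had an unadjusted p under 0.05 and 0 passed with voom weights (median -0.02). Slc26a1, which carries sulfate across the hepatocyte membrane, measured 199 ± 61.2 and 185 ± 35.2 CPM, while the log2 difference was -0.41 for Slc26a11 (adjusted p = 0.568) and 0.34 for Slc26a6 (adjusted p = 0.780).

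The 13 genes of cysteine and sulfite metabolism make cysteine, oxidise it or its derivatives towards sulfate, or turn it to taurine. Of these, 2 fell and none rose, with a median log2 difference of -0.24, where 1.23% of all genes tested fell. In this list 7 had an unadjusted p under 0.05, beside 2309 of all 13157 genes tested. Cth and Sqor were lower without overlap but did not pass (log2 differences -0.92 and -0.53, limma adjusted p = 0.0718 and 0.1455). Got1, an aminotransferase that acts on cysteine sulfinate, fell from 240 ± 64.3 to 112 ± 33.2 CPM (log2 difference -1.10, limma adjusted p = 0.0290, lost in 7 of 22 alternatives). Ethe1, the persulfide dioxygenase of mitochondria, fell from 54.2 ± 20.7 to 23.4 ± 5.24 CPM (log2 difference -1.16, adjusted p = 0.0376, lost in 11 of 22). Cysteine dioxygenase, Cdo1, measured 1374 ± 191 and 1051 ± 107 CPM (log2 difference -0.38, adjusted p = 0.219). Sulfite oxidase, Suox, which makes the final sulfate, measured 95.5 ± 18.4 and 74.4 ± 18.2 CPM (log2 difference -0.38, adjusted p = 0.395). Csad, which turns cysteine sulfinate towards taurine, measured 78.4 ± 55.0 and 239 ± 123 CPM (log2 difference 1.70, adjusted p = 0.0929).

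Among 22 nuclear receptors and other regulators of sulfotransferases, 1 fell, none rose and 4 had an unadjusted p under 0.05, with a median of -0.12. Esr1, the estrogen receptor alpha, fell from 35.9 ± 6.12 to 14.6 ± 1.61 CPM without overlap (log2 difference -1.28, limma adjusted p = 0.00442), and passed in 22 of 22 alternatives. The xenobiotic receptor Nr1i2 measured 50.4 ± 6.85 and 82.0 ± 14.5 CPM, with no overlap and higher on the Longevity diet (log2 difference 0.70, adjusted p = 0.0630). Its relative Nr1i3 had 0.50 (adjusted p = 0.368). Of 20 enzymes of steroid, bile acid and thyroid hormone metabolism, 0 passed the threshold by limma or with voom weights and 5 had an unadjusted p under 0.05 (median -0.19), the smallest p being those of Hsd17b11 (0.47, adjusted p = 0.161), Cyp7b1 (-0.52, adjusted p = 0.172) and Slc27a5 (-0.57, adjusted p = 0.192). Of 11 sulfatases, which remove sulfate, and their activators, 0 passed by limma or with voom weights and 2 had an unadjusted p under 0.05 (median -0.18). These counts stand beside 2309 of all 13157 genes tested with an unadjusted p under 0.05. Sulf2 had -1.12 (adjusted p = 0.108), Arsk -0.64 (adjusted p = 0.217) and Arsa 0.43 (adjusted p = 0.296). Of 16 sulfotransferases of the Golgi, which act on sugars and proteins of the secretory route, 0 passed by limma or with voom weights and 0 had an unadjusted p under 0.05 (median -0.25), with -0.75 for Chst7, -0.66 for Chst2 and -0.73 for Chst14.

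**Figure D5:**
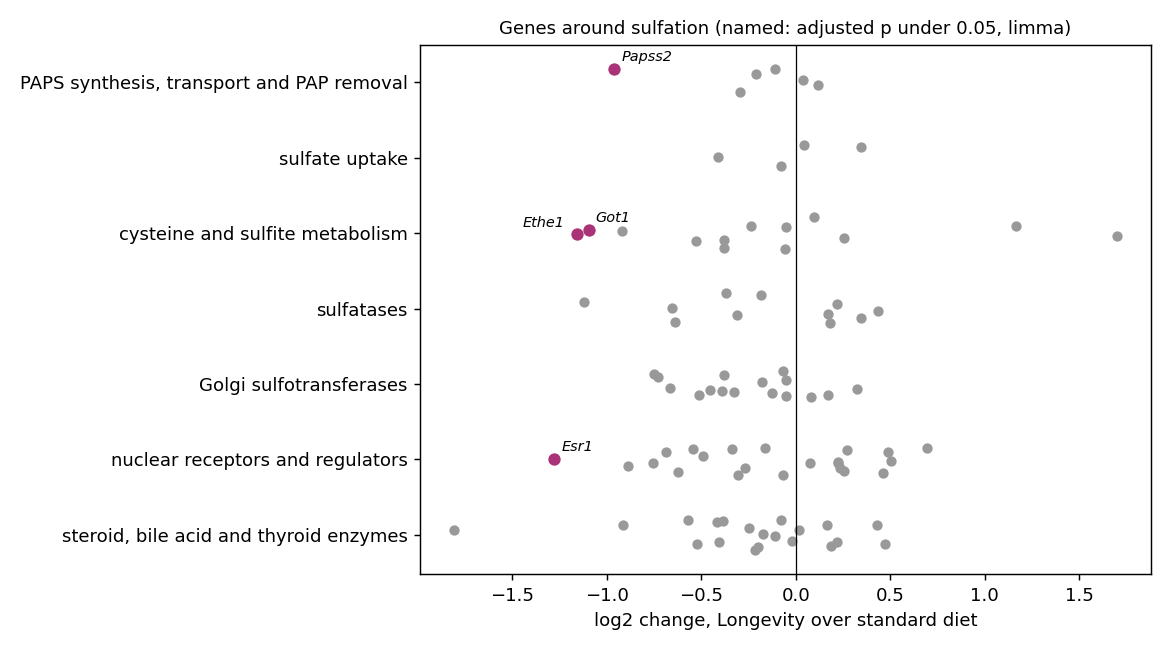
Log2 difference between the diets (horizontal axis) of each gene tested in 7 lists around sulfation (rows), 1 point per gene; genes with a limma adjusted p under 0.05 are named. Papss2, Ethe1, Got1 and Esr1 lie between -1.28 and -0.96, and the remaining points spread on both sides of 0.

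Bulk tissue was sequenced, in which fewer cells of a type and less RNA per cell cannot be told apart. The tissue label was checked on hepatocyte markers, of which 11 of 12 were in the table and all 11 measured. Their summed level ranged from 110300 to 165400 CPM on the standard diet and from 160400 to 214400 CPM on the Longevity diet. Alb alone supplied a mean of 79130 ± 19770 CPM on the standard diet and 124800 ± 20700 CPM on the Longevity diet. The median log2 difference of the 11 markers was 0.04, with 5 below 0 and 6 above. Among them 1 fell, the urea cycle enzyme Cps1 (log2 difference -0.98, limma adjusted p = 0.0376, lost in 10 of 22 alternatives). The summed level of 12 endothelial markers was 365 to 498 CPM on the standard diet and 163 to 382 on the Longevity diet, and that of 12 neutrophil and monocyte markers was 7.60 to 141 CPM and 3.87 to 13.4. The summed levels of 12 Kupffer cell and macrophage markers ran from 514 to 868 CPM and from 272 to 899. For each of these cell type lists, hepatocytes included, the summed levels overlapped between the diets. The endothelial sums overlapped only through LD_405, at 382 CPM. Log2 differences were below 0 for 12 of 12 endothelial, 8 of 8 neutrophil and monocyte and 11 of 12 Kupffer cell and macrophage markers tested. The same held for 12 of 12 stellate cell and fibroblast markers, beside 60.4% of all genes tested. All 19414 genes of the table had a mean above 0, so a gene at 0 in every mouse could not appear in it. Of 12 intestine and pancreas markers, 5 were in the table. The estimated depth was 42.5 ± 4.35 M reads (M for 1000000) per standard diet library and 29.95 ± 6.47 M per Longevity diet library (exact permutation p = 0.0159), and the mitochondrial share of reads 9.74 ± 2.61% and 5.45 ± 1.58% (exact permutation p = 0.0238). The part of these differences in the levels of the sulfotransferases was not tested.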

How the data were processed

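Liver RNA of 10 mice was sequenced after poly-A selection, per the labels' protocols, and the submitters' processing notes name STAR, Partek and mm39 without roles. The authors deposited a table of CPM values, scaled to 1000000 reads per library, with 0.0001 added to each; the counter and its strand setting are not given in the sources used here. That addition was removed. Steps between low values gave estimated depths of 24.7 to 45.7 M reads (M for 1000000), but of the values below 100 reads only 84.4% to 87.9% came within 0.1 of a whole number, short of the 95% needed to treat them as counts. The 13157 genes averaging 1 CPM or more were fitted as log2(CPM + 0.1) with limma 3.58.1 in R 4.3.3 (trend and robust with statmod 1.5.0) on diet alone, and two-sided p-values were Benjamini-Hochberg adjusted over all of them. Every adjusted p is from that fit unless its sentence names left-out mice or another alternative. Depth and mitochondrial share were compared by two-sided exact permutation over 252 assignments. End coordinates are 1 below the printed stop. RPKM used GENCODE M21 exon lengths, found for 97.1% of genes. Members and lists were chosen with earlier results of these data known. Named are all members, the other tested family genes, the nearest tested neighbours, 3 most correlated genes per member, and of each list the genes past the threshold or the 3 smallest p; some genes that this rule takes are not reported here. The fit was tested on simulated data. Alternatives changed the pseudocount, filter, scaling, empirical Bayes settings and library weights, added the leading digit of the mouse number as a covariate, weighted values with voom, or left out mice.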

Additional observations from a re-analysis of the deposited data

Results flagged for a closer look

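Dixon's test for a sample far from the others was applied to 30 groups of 5 mice, 15 sulfotransferase genes on 2 diets, and marked 2; chance marks about 1 in 20 such groups. Sult2a8 measured 168 CPM in LD_442, where the other 4 Longevity diet mice had 90.0 to 108 CPM. Sult2a5 measured 31.1 CPM in SD_403, where the other 4 standard diet mice had 69.3 to 89.0 CPM.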

How the results depend on the processing

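Up to 22 alternatives were fitted for each of 68 named genes, 60 of which kept their sign in all of them, among them 7 of 8 sulfotransferase members. Over these alternatives the log2 difference ran from -6.65 to -3.89 for Sult1e1, -5.84 to -3.24 for Sult5a1, -4.26 to -2.36 for Sult3a1, -1.72 to -1.12 for Sult2a8, -0.76 to -0.56 for Sult1b1, -0.87 to -0.54 for Sult1d1 and 0.06 to 0.29 for Sult1c2. The alternatives with voom weights and without SD_501 and LD_442 together were chosen after seeing the data. The number of members past the threshold, 2, became 4 with library weights (adding Sult1b1 and Sult2a8) and 0 with voom weights, and 2 to 3 when 1 mouse was left out. Over all genes, the 249 changed (87 higher, 162 lower) became 805 with library weights, 98 with the leading digit of the mouse number as a covariate, 124 without SD_501 and LD_442, and 97 to 378 without 1 mouse (97 without SD_403, 378 without LD_405). Scaling moved the split between higher and lower to 151 and 138 by median of ratios, 151 and 139 by TMM and 151 and 148 by quantiles, and moved the median of all genes by about 0.10.

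The signs that turned belonged to small differences, and the cause was not tested. Under median-of-ratios and TMM scaling the log2 difference was 0.0625 and 0.0622 for Sult1a1, 0.0333 and 0.0334 for Gm4316, 0.0363 and 0.0360 for Kat2b and 0.0267 and 0.0265 for Slc26a1. Gm4316 also had 0.0268 with a pseudocount of 1, 0.35 with quantile normalization and 0.0916 with voom weights. Library weights gave 0.0190 for Gm4316, 0.21 for Kat2b, 0.0618 for Slc26a1, -0.0966 for Slx1b and -0.0529 for Sult2a3. The covariate gave 0.0178 for Sult1a1, -0.14 for Slc26a6 and -0.0803 for Slx1b. Without SD_501 and LD_442 it was 0.0907 for Sult1a1, 0.26 for Gm4316 and -0.18 for Pot1b. Leaving out 1 mouse gave ranges that crossed 0, from -0.0848 to 0.0246 for Sult1a1, -0.61 to 0.28 for Gm4316, -0.21 to 0.30 for Kat2b, -0.0871 to 0.45 for Pot1b, -0.17 to 0.0806 for Slc26a1, -0.0548 to 0.76 for Slc26a6 and -0.0648 to 0.11 for Slx1b. No paired analysis was possible because no mouse number occurs on both diets. Depth limits the low genes most: at 24.7 M reads (M for 1000000), 3 reads stand for 0.121 CPM, and the level of Sult1e1 and Sult5a1 on the Longevity diet rests on few reads per library.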

Other observations

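Sulfation is one of several ways in which the liver couples small molecules to a soluble group. Of 27 genes of other conjugation and related metabolism, which include the ester-cleaving carboxylesterases, 3 fell and none rose on the Longevity diet (median log2 difference -0.11, beside -0.11 over all genes). In this list 8 had an unadjusted p under 0.05, beside 2309 of all 13157 genes tested. Nnmt, which methylates nicotinamide, fell from 91.0 ± 66.3 to 1.72 ± 1.75 CPM (log2 difference -5.91, limma adjusted p = 0.00160) and passed in 22 of 22 alternatives. The glucuronosyltransferase Ugt2b37 fell from 13.1 ± 8.54 to 0.587 ± 0.713 CPM (log2 difference -4.16, adjusted p = 0.0188, lost in 6 of 22), and the third was Ugt2a3, the neighbour of the chromosome 5 sulfotransferases. The abundant bilirubin enzyme Ugt1a1 measured 715 ± 204 and 830 ± 238 CPM (adjusted p = 0.732).

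Genes known to differ between male and female liver moved in both directions. Of 26 female-biased genes, 2 rose, 3 fell and 11 had an unadjusted p under 0.05 by limma (median -0.20). Cyp2a4 rose from 1321 ± 338 to 2937 ± 460 CPM (log2 difference 1.17, limma adjusted p = 0.0117, lost in 1 of 22 alternatives). Cyp2a22 rose by 1.71 on the log2 scale, with a mean of 114 ± 49.3 CPM on the standard diet and 339 ± 80.8 CPM on the Longevity diet (adjusted p = 0.0352, lost in 10 of 22). The receptor gene Ntrk2 fell by 5.76 on the log2 scale (adjusted p = 0.00360), its means being 83.4 ± 25.3 and 2.72 ± 3.14 CPM. The closely related cytochromes Cyp3a41b (-2.73, adjusted p = 0.0157, lost in 2 of 22) and Cyp3a41a (-1.74, adjusted p = 0.0298, lost in 8 of 22) fell too. Of 14 male-biased genes tested, 2 rose, Cyp2d9 (2.06, adjusted p = 0.0259, lost in 5 of 22) and Gstp1 (1.04, adjusted p = 0.0449, lost in 15 of 22), and 1 fell, Selenbp2 (-2.63, adjusted p = 0.0309, lost in 11 of 22), with a median of -0.27. Among these 14 genes, 9 had an unadjusted p under 0.05, beside 2309 of all 13157 genes tested.

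Of 8 neutrophil and monocyte markers tested, 1 fell, S100a8 (log2 difference -3.79, limma adjusted p = 0.0456, lost in 19 of 22 alternatives). In this list 5 had an unadjusted p under 0.05, and the median was -2.71. Of 12 stellate cell and fibroblast markers, 1 fell, Pdgfrb (-1.36, adjusted p = 0.0290, lost in 7 of 22). In this list 8 had an unadjusted p under 0.05, and the median was -0.78. By limma and with voom weights, 0 passed of 12 endothelial markers (9 with an unadjusted p under 0.05, median -0.74), 12 Kupffer cell and macrophage markers (1, -0.53), 10 B, T and NK cell markers (3, -0.78), 6 cholangiocyte markers (1, -0.06) and 3 intestine and pancreas markers (1, 0.46). Over all 13157 genes tested, 2309 had an unadjusted p under 0.05 and the median was -0.11.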
